A study of Mus musculus with 6 samples.

Results

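The genes described here handle calcium inside the islet cell: the pumps that fill the endoplasmic reticulum or push calcium out of the cell, the channels that release or refill the store, the exchangers, the mitochondrial uptake channel, and the proteins that sense or buffer calcium. They were chosen by name from 32 listed genes, as all probe sets whose symbol in the platform annotation is one of them. Of the 32 genes, 29 had at least 1 probe set, with 71 probe sets in all of the 45037 on the array that are not array controls. Itpr1, Calm2 and Calm3 were not analysed here. The tissue was pancreatic islets of OF1 male mice aged 10 weeks, in 2 groups of 3 samples, each on its own Affymetrix 3′ expression array. The BPA group received bisphenol A, a plasticiser that binds oestrogen receptors, and the control group received the tocopherol-stripped corn oil vehicle. The series' design gives 100 µg/kg/day by subcutaneous injections of 50 µg/kg for 4 days, with islets taken 16 hours after the last one. The protocol field of every sample states 2 days instead, and the BPA samples' source field states a concentration, 1 nM during 48 hours, so the exposure behind these values is not settled. The design speaks of 3 experiments per replicate, without saying whether islets of several mice were pooled, so the p-values measure the spread between these samples only.

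In beta cells, glucose closes ATP-sensitive potassium channels, the membrane depolarises and calcium enters through voltage-gated channels to trigger insulin release. SERCA pumps load calcium into the endoplasmic reticulum, inositol trisphosphate and ryanodine receptors let it out again, and STIM proteins in the reticulum membrane sense an empty store and open ORAI channels in the plasma membrane. Plasma membrane pumps and sodium-calcium exchangers return cytosolic calcium to rest, while the mitochondrial uniporter couples the calcium signal to ATP production.

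Values are the authors' log2 signals, on which a step of 1 is a doubling. The median of all probe sets other than controls was 6.60, and this median served as the filter for testing; a probe set's rank is the percentile of its mean control signal among those 45037. Probe sets differ in how well they bind, so a rank places a probe set and not the amount of a transcript. Of the 71 probe sets, 37 lay above the filter and 34 below, and for 20 of the 29 genes the brightest probe set passed it. Islet identity was clear, with mean log2 signals in controls of 15.29 for the insulin gene Ins2 and 15.10 for glucagon (Gcg). Exocrine markers were bright as well: Cpa1, a pancreatic carboxypeptidase, had a control mean of 13.79. The 14 acinar genes above the filter, each centred on its mean over all arrays, had a list mean of 0.37, 0.71 and -1.50 in the controls (replicate 1, 2, 3). After BPA that mean was 0.93, 0.00 and -0.51, so the list was lowest in replicate 3 of both groups and 13 of its 14 genes had a higher BPA mean. The centred means of 15 stellate cell markers were -0.025, -0.037 and -0.42 in controls and 0.49, -0.020 and 0.017 after BPA. Those of 9 glial and nerve markers were -0.19, 0.039 and -0.53 in controls and 0.44, 0.15 and 0.094 after BPA, without overlap between the groups; 8 of these 9 genes had a higher BPA mean, with a median difference of 0.40, the highest of the marker lists. The part of these cell types in the differences given here was not tested. In such bulk samples fewer cells of a type and less RNA per cell cannot be told apart. Of 14 skeletal muscle markers, 12 lay below the filter. The arrays labelled control replicate 3 and BPA replicate 3 stood apart from the rest and correlated with each other at 0.993, above control replicate 3 with control replicate 1 (0.985). The array's own quality transcripts also moved with the groups. The 3′ minus 5′ signal of Gapdh was 3.48, 3.79 and 3.40 in controls and 2.58, 2.91 and 2.99 after BPA, and that of Actb 3.35, 3.80 and 3.68 against 2.61, 2.83 and 2.98, while that of Tfrc overlapped. The part of this imbalance in the differences given here was not tested.

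No probe set of these genes differed past the test. In limma's moderated test, adjusted by Benjamini-Hochberg over all 22518 tested probe sets, 0 of 37 passed an adjusted p of 0.05 (background 0%); the lowest value among them was 0.655. Without adjustment limma gave p under 0.05 for 3 of the 37, or 8.11% against a background of 6.47%. Of these 3, 2 had a higher signal after BPA (background 3.84%) and 1 a lower one (background 2.64%). The groups did not overlap for 7 of the 37, or 18.9%, against 12.2% of all tested probe sets; BPA was higher in 3 of them (background 7.83%) and lower in 4 (background 4.35%). Among the 34 dim probe sets they did not overlap for 5, or 14.7%, against 10.9% of all probe sets below the filter. BPA was higher in all 5 (background 7.29%) and lower in 0 (background 3.57%). With so few probe sets nothing about the genes is read from these shares, and the rest of the account describes their values.

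The start regions of 4 of the genes are shown here: Atp2a3 and Atp2a1, related pumps far apart in rank, and Atp2b1 and Sri, which had the smallest unadjusted p. Each sequence is the 250 bases before an annotated start in RefSeq, build GRCm38.p6, read 5′ to 3′ on the gene's strand, with every CpG dinucleotide in capitals.
Atp2a3, chr11:72960919-72961168, plus strand: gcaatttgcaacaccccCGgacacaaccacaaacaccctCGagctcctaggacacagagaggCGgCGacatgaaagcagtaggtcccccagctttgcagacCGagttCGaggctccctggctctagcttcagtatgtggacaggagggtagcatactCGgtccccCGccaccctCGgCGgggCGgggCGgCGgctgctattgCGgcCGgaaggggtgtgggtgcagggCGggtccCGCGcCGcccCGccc
Atp2a1, chr7:126463074-126463323, minus strand: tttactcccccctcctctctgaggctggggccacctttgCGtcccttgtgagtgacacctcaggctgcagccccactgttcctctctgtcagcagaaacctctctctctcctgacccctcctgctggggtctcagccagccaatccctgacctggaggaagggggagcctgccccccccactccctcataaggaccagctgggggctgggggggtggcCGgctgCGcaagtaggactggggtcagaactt
Sri, chr5:8045828-8046077, plus strand: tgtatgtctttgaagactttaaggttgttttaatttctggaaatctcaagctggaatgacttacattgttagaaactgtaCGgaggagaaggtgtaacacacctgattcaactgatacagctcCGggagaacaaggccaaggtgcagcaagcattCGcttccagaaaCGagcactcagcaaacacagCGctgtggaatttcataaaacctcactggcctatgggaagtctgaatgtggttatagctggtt
Atp2b1, chr10:98914392-98914641, plus strand: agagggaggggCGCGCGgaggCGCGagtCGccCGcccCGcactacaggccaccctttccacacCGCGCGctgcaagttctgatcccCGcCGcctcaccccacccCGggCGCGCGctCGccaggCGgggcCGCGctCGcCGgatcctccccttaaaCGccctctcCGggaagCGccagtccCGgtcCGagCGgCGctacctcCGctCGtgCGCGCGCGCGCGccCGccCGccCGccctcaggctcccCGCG
The window of Atp2a3 held 20 CpG, that of Atp2a1 3, that of Sri 5 and that of Atp2b1 43, where the median of all 32851 windows of this length was 6. A window was found for 23 of the 29 genes, 26 windows in all, of which 19 held more CpG than that median. Taking each gene's richest window, the 16 genes with a brightest probe set above the filter had a median of 21 CpG (5 to 44), and the 7 below it a median of 9 (2 to 17). The GC box GGGCGG, on either strand, occurred in 17 of the 26 windows (65.4%) and in 32.7% of all windows; it overlaps the CpG count, since it contains one. The palindromic oestrogen response element, GGTCA and TGACC with any 3 bases between them, occurred in 0 of the 26 windows and in 0.0639% of all windows. These letters are descriptions of the windows and say nothing of binding.

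**Figure D1:**
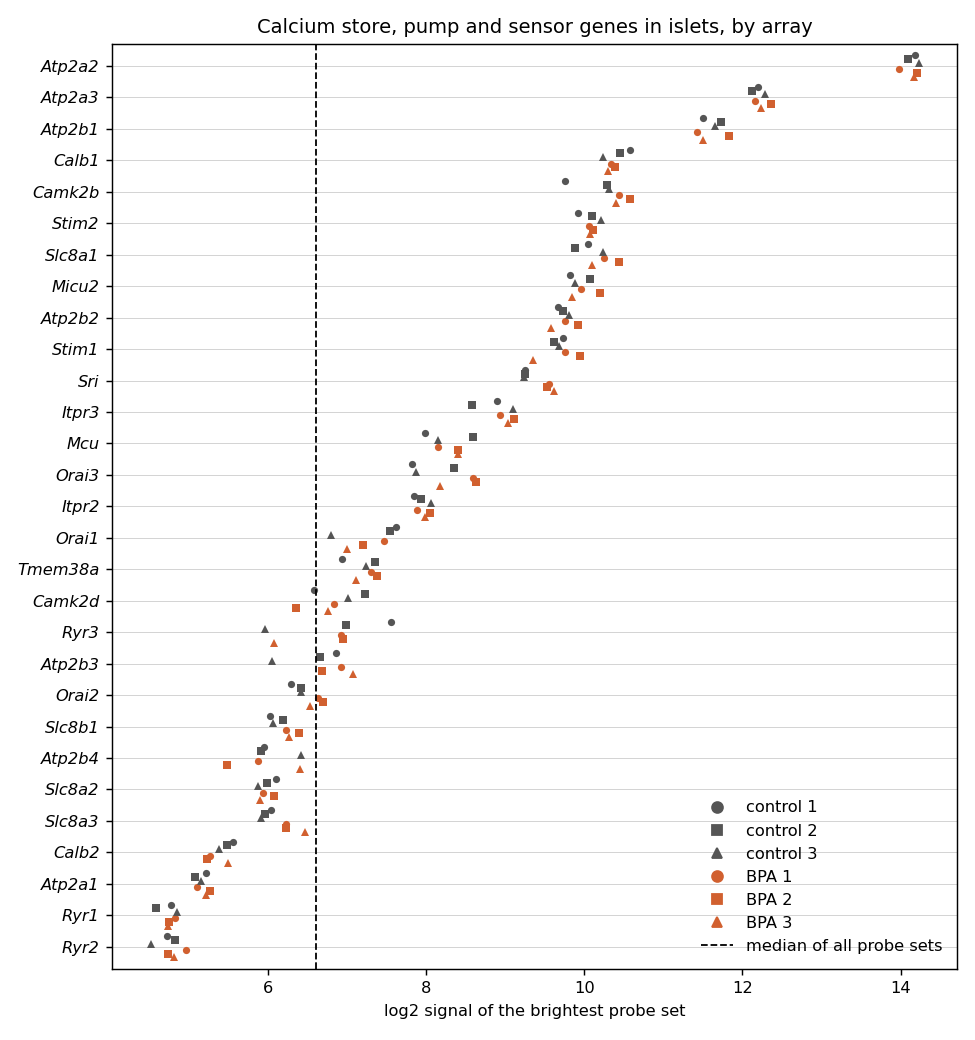
The log2 signal of the brightest probe set of each of the 29 genes on the 6 arrays, ordered by the control mean; grey marks are control and orange marks BPA arrays, with circle, square and triangle for replicates 1, 2 and 3, and the dashed line is the median of all probe sets (6.60). Atp2a2 sits above 13.9 on all arrays, and the brightest probe sets of Ryr1 and Ryr2 sit below 5.

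The pumps of the endoplasmic reticulum held the brightest and some of the dimmest probe sets. Atp2a2 (probe set 1427250_at), which encodes the widely expressed SERCA2, had log2 signals of 14.19, 14.10 and 14.23 in controls and 13.98, 14.21 and 14.17 after BPA on its brightest probe set, at the 99.9th percentile. The groups overlapped, and the difference was -0.050 ± 0.084 (SE; limma adjusted p = 0.933, n = 3 per group). Atp2a3, which encodes the SERCA3 pump found in beta cells and other non-muscle cells, read 12.20, 12.12 and 12.28 in controls against 12.15, 12.36 and 12.23, at the 97.7th percentile. That probe set too overlapped, with a difference of 0.047 ± 0.094 (SE). The second probe set of Atp2a3 (1450124_a_at) was much dimmer, at 7.77, 7.69 and 7.79 in controls and 7.88, 8.19 and 8.10 after BPA. Every BPA array lay above every control array there, by 0.31 ± 0.12 (SE; limma unadjusted p = 0.0416, adjusted p = 0.748, n = 3 per group), or 1.24 times the control signal. Atp2a1, the SERCA1 pump of fast skeletal muscle, lay below the filter on its only probe set, at 5.15 ± 0.06 in controls and 5.20 ± 0.09 after BPA (SD, n = 3 per group).

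Among the plasma membrane pumps, which expel calcium from the cell, Atp2b1 stood highest and its probe sets disagreed. On the brightest by the mean of all arrays, Atp2b1 read 11.50, 11.72 and 11.65 in controls and 11.42, 11.83 and 11.51 after BPA, with overlapping groups and a difference of -0.038 ± 0.134 (SE). A second probe set (1428936_at), the brighter of them in controls alone, read 11.59, 11.49 and 11.95 in controls and 10.95, 11.13 and 11.14 after BPA. All BPA arrays lay below all controls there, by -0.60 ± 0.14 (SE), so that controls had 1.52 times the signal of BPA. That was the smallest unadjusted p of the 37 tested probe sets (limma unadjusted p = 0.00429, adjusted p = 0.655), and without the replicate 3 arrays the difference was -0.50. The third probe set of Atp2b1 differed by 0.12 ± 0.15 (SE), with overlapping groups. Atp2b2, a PMCA best known from neurons and hair cells, had 3 tested probe sets that differed by 0.012 to 0.069, the brightest at 9.74 ± 0.07 against 9.75 ± 0.17 (SD, control and BPA, n = 3 per group). Atp2b3, another pump known from neurons, lay close to the filter. Its brightest probe set read 6.86, 6.66 and 6.05 in controls and 6.92, 6.68 and 7.08 after BPA. The difference of 0.37 ± 0.23 (SE) was 0.14 without control replicate 3 and 0.043 without both replicate 3 arrays. Atp2b4, the fourth PMCA gene, stayed below the filter at 6.09 ± 0.29 and 5.92 ± 0.47 (SD, control and BPA).

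The release channels differed in rank by family. Itpr3, an inositol trisphosphate receptor that is also abundant in exocrine cells, read 8.90, 8.58 and 9.10 in controls and 8.93, 9.11 and 9.03 after BPA on its only probe set, at the 77.7th percentile. The groups overlapped, with a difference of 0.16 ± 0.16 (SE) that was 0.023 without control replicate 2 and 0.28 without control replicate 3. Itpr2, its relative, had 6 probe sets, 3 of them tested, and the brightest read 7.95 ± 0.11 and 7.97 ± 0.08 (SD, control and BPA), a difference of 0.020 ± 0.115 (SE). The 6 differences of Itpr2 lay between -0.12 and 0.25. On 1 of its tested probe sets the groups did not overlap, with 6.91, 6.99 and 6.85 in controls and 6.79, 6.79 and 6.83 after BPA, a gap of -0.12 ± 0.10 (SE; limma adjusted p = 0.876).

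The ryanodine receptors, the release channels best known from muscle and neurons, were dim. Ryr2, the isoform of heart muscle that has also been studied in beta cells, had its brightest probe set at the 18.6th percentile, at 4.72, 4.82 and 4.52 in controls and 4.96, 4.74 and 4.82 after BPA. Ryr1, the skeletal muscle isoform, lay at the 19.4th percentile and read 4.74 ± 0.14 and 4.77 ± 0.05 (SD, control and BPA). A still dimmer probe set of Ryr1 read 3.86, 3.98 and 3.80 in controls against 4.21, 4.28 and 4.04 after BPA, without overlap, but at the 5.82nd percentile it was not tested with the filter. Ryr3 alone had a probe set above the filter. It read 7.56, 6.99 and 5.96 in controls and 6.92, 6.95 and 6.08 after BPA, lowest in replicate 3 of each group. The difference of -0.19 ± 0.43 (SE) was small beside the control range, and the acinar marker list was lowest in the same arrays; its part in this result was not tested.

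**Figure D2:**
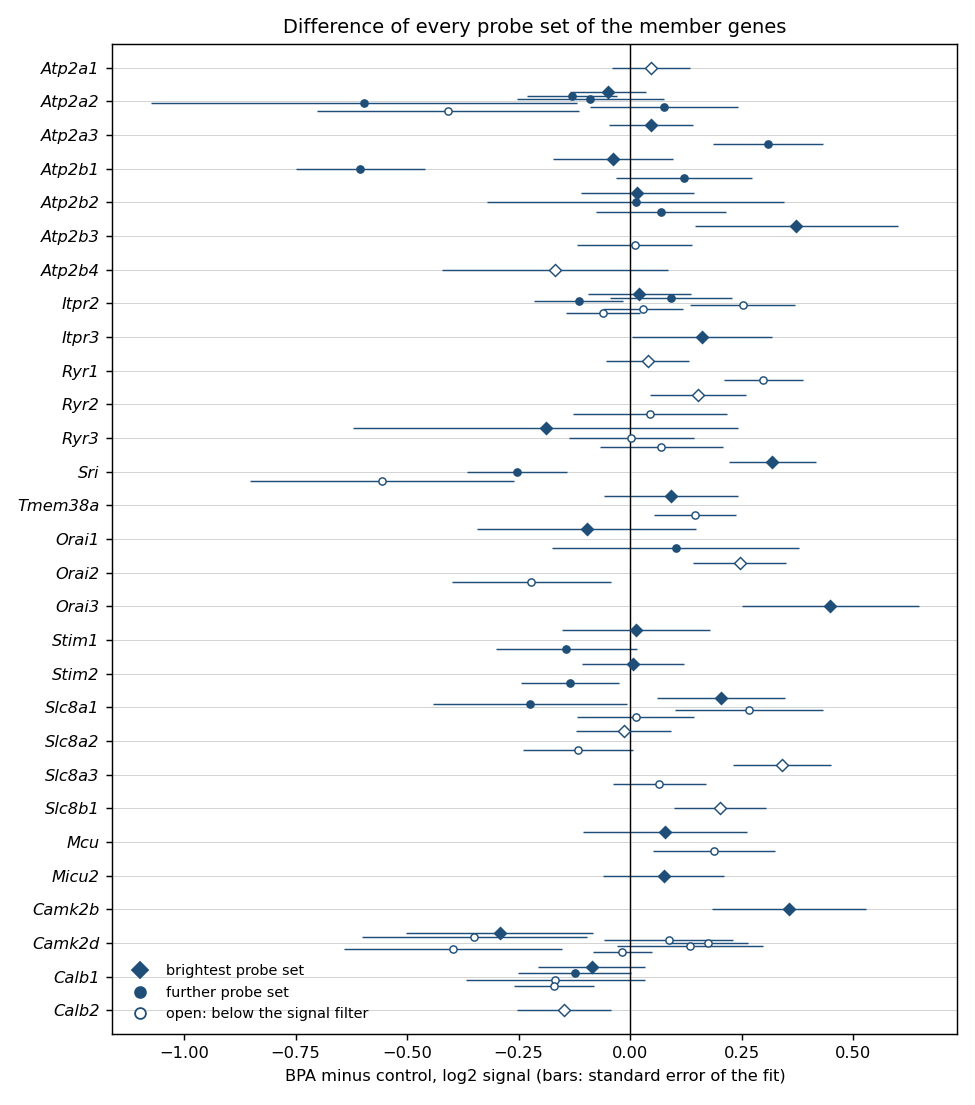
The difference between BPA and control in log2 signal for each of the 71 probe sets, with the standard error of the limma fit; diamonds are the brightest probe set of each gene, circles further ones, and open symbols lie below the filter. The differences run from -0.60 (Atp2b1 and Atp2a2) to 0.45 (Orai3), and probe sets of Sri, Atp2b1 and Camk2d fall on both sides of 0.

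Of the partners of release, Sri had the tightest values and the plainest disagreement. Sri encodes sorcin, a calcium-binding protein that associates with ryanodine receptors and SERCA. Its brightest probe set (1450878_at), at the 81.7th percentile, read 9.26, 9.26 and 9.23 in controls and 9.56, 9.53 and 9.61 after BPA. All BPA arrays were higher, by 0.32 ± 0.10 (SE), or 1.25 times the control signal (limma unadjusted p = 0.0147, adjusted p = 0.674, n = 3 per group), and by 0.29 without the replicate 3 arrays. The second probe set of Sri (1423155_at) went the other way without overlap, at 7.87, 7.77 and 8.01 in controls and 7.63, 7.64 and 7.62 after BPA. Its difference was -0.25 ± 0.11 (SE; limma unadjusted p = 0.0594, adjusted p = 0.791). The dimmest one (1453457_at), below the filter, read 6.15, 6.08 and 6.77 in controls and 5.28, 5.73 and 6.33 after BPA, a difference of -0.56 ± 0.30 (SE) with overlapping groups. The direction for Sri thus depends on the probe set. Tmem38a, which encodes a cation channel of the reticulum that balances charge during release, differed by 0.092 ± 0.150 (SE) with overlapping groups.

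Store-operated entry had bright sensors and dimmer pores. Stim2, a sensor of calcium in the reticulum, read 9.92, 10.10 and 10.21 in controls and 10.07, 10.11 and 10.07 after BPA, a difference of 0.0072 ± 0.114 (SE). Stim1, the other sensor, read 9.73, 9.62 and 9.68 in controls and 9.76, 9.95 and 9.36 after BPA, a difference of 0.013 ± 0.166 (SE). On the second probe set of Stim2 every BPA array lay below every control, with 7.15, 7.11 and 7.30 in controls and 7.08, 7.10 and 6.98 after BPA, a difference of -0.13 ± 0.11 (SE; limma adjusted p = 0.867). Orai3 (1434064_at), one of the pore genes, had the largest difference of any of these probe sets towards BPA. It read 7.82, 8.36 and 7.87 in controls and 8.59, 8.63 and 8.18 after BPA, where BPA replicate 3 lay below control replicate 2. The difference was 0.45 ± 0.20 (SE), 1.36 times the control signal, and did not pass (limma unadjusted p = 0.0598, adjusted p = 0.791, n = 3 per group). Orai1, the pore that STIM1 opens in lymphocytes, read 7.62, 7.54 and 6.80 in controls and 7.47, 7.20 and 7.00 after BPA, again lowest in the replicate 3 arrays. The acinar list was lowest there too, as were 28.2% of all tested probe sets, and its part in this result was not tested. The 2 probe sets of Orai1 differed by -0.097 ± 0.245 and 0.10 ± 0.28 (SE). Orai2 lay just below the filter, with 6.29, 6.42 and 6.42 in controls and 6.63, 6.70 and 6.53 after BPA on its brightest probe set. Those groups did not overlap, whereas the second probe set of Orai2 differed by -0.22.

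Of the 4 Slc8 genes among the members, whose exchangers trade sodium for calcium, Slc8a1 alone was bright. It read 10.05, 9.89 and 10.24 in controls and 10.25, 10.44 and 10.10 after BPA at the 88.3rd percentile, a difference of 0.20 ± 0.14 (SE) with overlapping groups, while its other tested probe set differed by -0.22 ± 0.22 (SE). Slc8a2, Slc8a3 and Slc8b1 lay below the filter. Slc8a3, an exchanger known from brain and muscle, read 6.03, 5.97 and 5.91 in controls and 6.23, 6.23 and 6.47 after BPA, without overlap. The mean of the glial and nerve markers did not overlap either. That mean read -0.19, 0.039 and -0.53 in controls and 0.44, 0.15 and 0.094 after BPA. The part of these cells was not tested. The second probe set of Slc8a3 differed by 0.066. Slc8b1, the mitochondrial exchanger that returns calcium to the cytosol, read 6.03, 6.19 and 6.07 against 6.22, 6.39 and 6.27, also without overlap. Slc8a2, a mainly neuronal exchanger, differed by -0.014. The mitochondrial uniporter showed no separation: Mcu, its pore, read 8.24 ± 0.32 and 8.32 ± 0.14 (SD, control and BPA), and Micu2, its gatekeeper, 9.93 ± 0.13 and 10.00 ± 0.18.

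Among sensors and buffers, Camk2b was higher in all BPA arrays. It encodes the beta subunit of calcium/calmodulin-dependent kinase II, and read 9.75, 10.29 and 10.32 in controls and 10.44, 10.58 and 10.41 after BPA. The difference was 0.36 ± 0.17 (SE), 1.28 times the control signal (limma unadjusted p = 0.0786, adjusted p = 0.796, n = 3 per group). Control replicate 1 stood lowest, and without it the difference was 0.17. Camk2d, the delta subunit, had 7 probe sets, only 1 of them above the filter, which read 6.58, 7.23 and 7.02 in controls and 6.83, 6.36 and 6.76 after BPA. Its 7 differences ran from -0.40 to 0.17, with 4 lower and 3 higher. On the highest of these, a dim probe set (1427763_a_at), the groups did not overlap, with 5.43, 5.56 and 5.42 in controls and 5.58, 5.68 and 5.66 after BPA. Calb1, which encodes the buffer calbindin, read 10.58, 10.45 and 10.24 in controls and 10.34, 10.38 and 10.30 after BPA, at the 90.8th percentile. All 4 probe sets of Calb1 had a lower BPA mean, by -0.17 to -0.086, each with overlapping groups. On the brightest the difference was -0.0073 without control replicate 1 and -0.18 without control replicate 3. Calb2, which encodes calretinin, lay below the filter at 5.48 ± 0.09 and 5.33 ± 0.14 (SD, control and BPA).

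**Figure D3:**
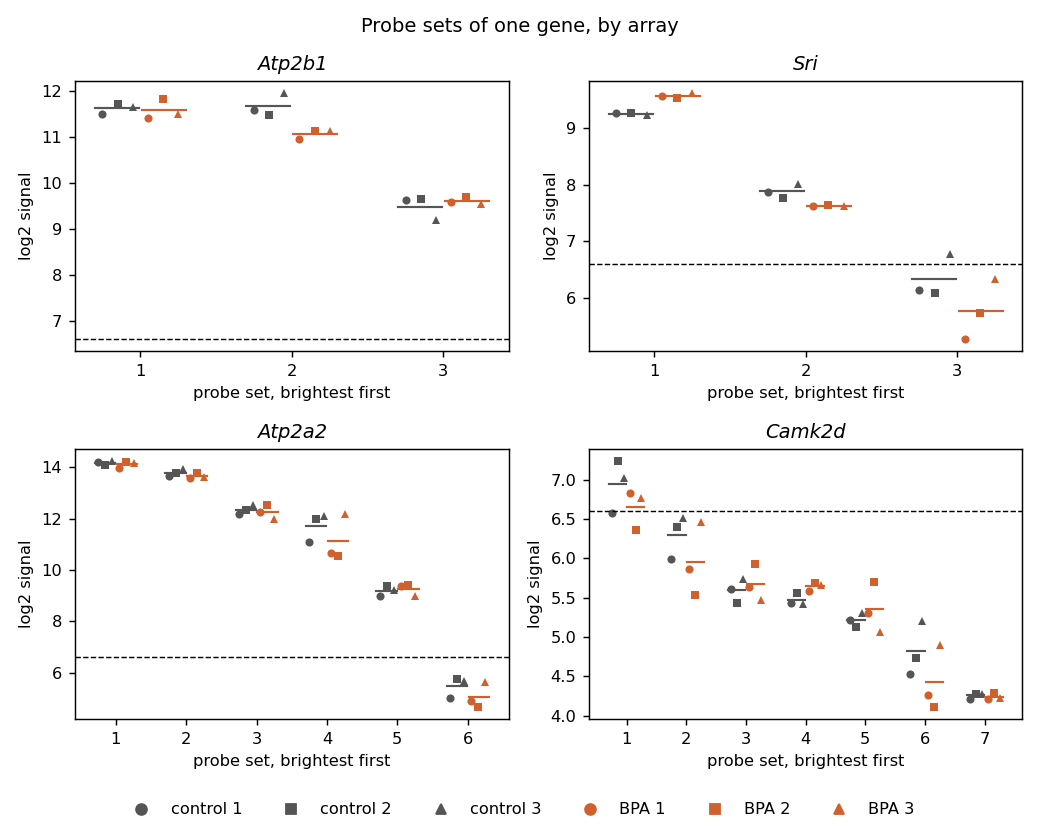
The log2 signal on each array of every probe set of Atp2b1, Sri, Atp2a2 and Camk2d, brightest first, with short lines for the group means and a dashed line at the median of all probe sets (6.60). The first 2 probe sets of Sri separate the groups in opposite directions, and only the second of Atp2b1 separates them.

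Where a gene had several probe sets, some of these differed in sign or size. Of 42 further probe sets of 21 genes, 16 had the sign opposite to that of the brightest, some between differences within their SE. The same share was not computed over all genes. From the brightest, 4 differed by more than 0.5, namely those already given for Atp2b1 and Sri and 1 of Atp2a2. That probe set of Atp2a2 (1437797_at) read 11.08, 11.97 and 12.10 in controls and 10.66, 10.54 and 12.16 after BPA. BPA replicate 3 lay with the controls and the other BPA arrays below them, so the difference was -0.60 ± 0.48 (SE) over all arrays and -0.92 without the replicate 3 arrays. The dimmest probe set of Atp2a2 also had BPA replicates 1 and 2 lowest, at 4.89 and 4.66, beside 5.63 in BPA replicate 3 and 4.99, 5.73 and 5.68 in controls. Of the 37 tested probe sets, 6 were lowest and 3 highest in replicate 3 of both groups (16.2% and 8.11%), against 28.2% and 20.5% of all tested probe sets.

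Over the genes as a group, the shift was small and moved with single arrays. With the brightest probe set of each gene and no filter, 20 of 29 genes had a higher BPA mean and 9 a lower one, a share of 69.0% beside 60.3% of all 18193 genes. The median difference was 0.046 (quartiles -0.038 and 0.20), beside 0.036 (-0.059 and 0.13) over all genes. Without BPA replicate 2 the medians were 0.0074 for the members and 0.022 for all genes, and without BPA replicate 3 they were 0.097 and 0.055. Of these 29, 5 did not overlap between the groups (17.2%, against 11.7% of all genes), and in all 5 (Sri, Camk2b, Orai2, Slc8a3 and Slc8b1) BPA was higher. The last 3 lie below the filter. With the brightest chosen by the control mean, 1 of the 29 genes changed probe set: Atp2b1, to 1428936_at, where BPA was lower without overlap, by -0.60. That every gene without overlap was higher thus depends on that choice. Atp2b1 had a lower BPA mean on both probe sets, and the median of 0.046 did not change. By direction, the background is given for probe sets and not for the brightest one per gene. Among all tested probe sets 7.83% did not overlap with BPA higher and 4.35% with BPA lower. Among all probe sets below the filter these shares were 7.29% and 3.57%. The mean of the 29 relative to the 6 arrays was -0.047, 0.0096 and -0.074 on the control arrays (replicate 1, 2, 3). On the BPA arrays it was 0.034, 0.081 and -0.0042, and the groups overlapped.

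**Figure D4:**
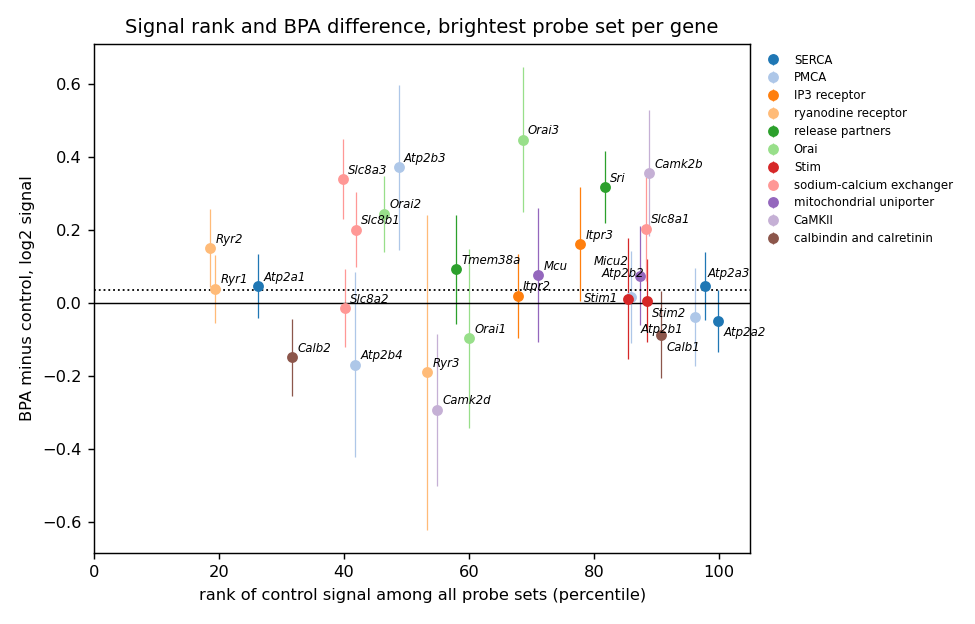
The rank of each gene's brightest probe set in controls (percentile) against its difference between BPA and control (log2, with the standard error of the fit), coloured by family; the dotted line is the median of all genes (0.036). On the probe sets drawn, the 3 genes above the 95th percentile, Atp2a2, Atp2a3 and Atp2b1, lie between -0.050 and 0.047. Further probe sets of Atp2a2 and Atp2b1 above that percentile, not drawn here, differ by -0.60 to -0.089.

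A wider list of calcium handling genes held no call either. Of 115 further genes, 106 had a probe set and 80 a brightest one above the filter; 41 had a higher and 39 a lower BPA mean, with a median of 0.011, beside 57.7% higher among all genes above the filter. None passed limma's test (0 of 80, smallest adjusted p 0.655), and 3 had an unadjusted p under 0.05, all higher (3.75%, background 6.47%). The groups did not overlap for 9 genes with higher and 3 with lower BPA values, against 12% of all genes above the filter in either direction; the 4 higher and the 3 lower ones with the smallest p are given here. S100a1, an EF-hand protein that binds ryanodine receptors and SERCA in muscle, read 10.09, 10.60 and 10.37 in controls and 11.25, 10.90 and 10.87 after BPA. All its BPA arrays were higher, by 0.65 ± 0.17 (SE; limma unadjusted p = 0.00691, adjusted p = 0.655). Camk1, a calmodulin-dependent kinase, differed by 0.40 ± 0.13, Rcn3, a reticulocalbin of the reticulum, by 0.59 ± 0.22, and Ncs1, a neuronal calcium sensor, by 0.29 ± 0.13 (SE), each without overlap. Without control replicate 3 the difference of Ncs1 was 0.17 and that of Rcn3 0.39. That array had the lowest mean of the acinar, the stellate and the glial and nerve markers, and the part of these cells was not tested. Lower without overlap were Ahcyl2, a relative of an inositol trisphosphate receptor regulator, by -0.25 ± 0.11, the kinase II subunit gene Camk2g by -0.16 ± 0.11 and Fkbp1b, which stabilises ryanodine receptors, by -0.11 ± 0.08 (SE).

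Of the partners and relatives of the members not yet given, the following overlapped between the groups. Calr and Canx, the calcium-binding chaperones of the reticulum, read 14.18 ± 0.11 and 13.86 ± 0.10 in controls and 14.17 ± 0.04 and 13.81 ± 0.07 after BPA (SD, n = 3 per group). Pln, which restrains SERCA2, differed by 0.15 ± 0.18, the Golgi pump gene Atp2c1 by 0.11 ± 0.23, Tmem38b, the relative of Tmem38a, by 0.12 ± 0.13, and Camk2a by 0.011 ± 0.103 (SE).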

How the data were processed

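The authors deposited 1 log2 signal per probe set and array. The submitters' processing notes name MAS5, with no version; the background, summary and scaling steps are not given in the sources used here. The values run from 2.95 to 15.32, with dim probe sets close between arrays, unlike plain MAS5 signals, so the method behind them is not settled, and the spread of dim probe sets depends on it. Array medians lay between 6.55 and 6.65, so the values were used as deposited; with 3 arrays per group, precision is limited by their number.

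Of 45101 probe sets, 64 array controls were left out; of the others, the platform annotation gave 34945 a single gene. Groups came from the sample labels. The 22518 probe sets with a mean over the 6 arrays above the median were tested by limma 3.58.1 in R 4.3.3 (lmFit, then eBayes with trend; two-sided; Benjamini-Hochberg adjustment, threshold 0.05). The procedure was run on simulated data with independent noise and changes larger than any difference given for the members. That run cannot show whether changes of the size seen here would be found. SE is limma's moderated standard error, taken for dim probe sets from the fit without the filter. Each member was named by its brightest probe set over the 6 arrays. Further probe sets were named where groups did not overlap, unadjusted p was under 0.05 or the value lay over 0.5 from the brightest, other calcium genes by smallest p among those without overlap (up to 4 per direction) and as direct partners. The members and lists were chosen with earlier results of these data known.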

Additional observations from a re-analysis of the deposited data

How the results depend on the processing

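Under all 18 alternatives that kept an adjusted threshold, limma called 0 member probe sets. At an unadjusted p under 0.05 the count for members was 3. The 18 were other scalings, filters and moderation, an adjusted p of 0.1, averaging of the probe sets per gene and the replicate block. They also took in each array left out and both replicate 3 arrays left out. All but the adjusted p of 0.1 were also run for the other calcium genes, and under these 17 limma called 0 of those genes. With the replicate number as a block the count was also 0, the median shift stayed at 0.046 and 3042 of all tested probe sets had an unadjusted p under 0.05 in place of 1458. Deviations of same-numbered arrays correlated at 0.476, 0.078 and 0.706. Control replicate 1 with BPA replicate 2 gave 0.397 and control replicate 2 with BPA replicate 1 gave 0.427. Both lie above the 0.078 of the replicate 2 arrays. Deviations from the mean of 3 arrays sum to 0 in each group, so these correlations cannot decide whether the numbers mark pairs. The main fit did not take them as pairs. A replicate 3 array with replicate 1 or 2 of the other group gave -0.67 to -0.35. The deviation shared by the replicate 3 arrays thus stays in the spread of the main fit. The group median of 0.046 ranged from 0.0074 to 0.097 with each array left out, the highest without BPA replicate 3. It was 0.033 for the 20 genes above the filter. With the brightest probe set chosen in controls alone it was unchanged. Only Atp2b1 changed probe set there, from -0.038 to -0.60, both below the median, so that choice could not move it. Both of these settings were chosen after seeing the data. Of 39 named probe sets, 24 kept their sign in each alternative run. Small differences turned: under cyclic loess Atp2b2 (-0.0064), Itpr2 (-0.022), Stim1 (-0.011), Stim2 (-0.011), Camk2a (-0.031) and Calr (0.033), under median centring Calr (0.014), and without the replicate 3 arrays Atp2b1 (0.014), Mcu (-0.0090) and Calr (0.015). With 1 array left out the brightest probe sets that turned ran for Atp2a2 from -0.094 to 0.020, Atp2a3 from -0.0082 to 0.094, Atp2b1 from -0.16 to 0.043, Atp2b2 from -0.068 to 0.10, Itpr2 from -0.029 to 0.076, Ryr3 from -0.63 to 0.097, Tmem38a from -0.029 to 0.18, Orai1 from -0.36 to 0.054, Stim1 from -0.12 to 0.18, Stim2 from -0.073 to 0.075, Mcu from -0.054 to 0.25, Micu2 from -0.021 to 0.15, Camk2a from -0.027 to 0.036, Calr from -0.071 to 0.038 and Atp2c1 from -0.082 to 0.30. Leaving out 1 array kept the sign but moved the difference by over 1.5 times for 14 of the 39, among them Camk2d, Slc8a1, Rcn3, Fkbp1b, Pln, Canx and Tmem38b. The cause was not tested. Whether a dim probe set was detected cannot be read from these values, which carry no detection calls.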
